A study of Mus musculus with 29 samples.

Results

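The 8 genes examined belong to cytosolic DNA sensing and were chosen by symbol: Tmem173 (also called Sting1), Aim2, Ifi204, Ifi203, Ifi207, Ifi209, Ifi211 and Mndal. All 8 matched an identifier among the 48709 genes of the count tables. In GENCODE M21 (GRCm38) Tmem173 lies on chr18:35733679-35740554, and the other 7 lie in the cluster chr1:173350879-174031810 with 7 further Ifi200 loci. Aim2 (chr1:173350879-173466040) and Ifi209 (chr1:173630917-173647928) are on the plus strand. On the minus strand are Ifi207 (chr1:173723427-173741747), Ifi204 (chr1:173747293-173766943), Mndal (chr1:173849126-173942491), Ifi211 (chr1:173896345-173913046) and Ifi203 (chr1:173920407-173942672). RNA-seq was performed in 3 experiments with 29 libraries, each comparing anti-miR-99b, a locked nucleic acid oligonucleotide that binds miR-99b-5p, with sc-control, an oligonucleotide of scrambled sequence. In the first, male C57BL/6J mice aged 3 months received lipid nanoparticles with either oligonucleotide in the prefrontal cortex (PFC) of both hemispheres, and this tissue was collected 5 days later (n = 3 and 3 mice). In the second, primary microglia of CD1 pups (postnatal day 1) grown with L929-conditioned medium received either oligonucleotide for 2 days (n = 4 and 4). In the third, CD1 microglia treated in the same way were moved onto CD1 cortical neurons from embryonic day 17.5, and the co-culture was harvested 48 hours later (n = 7 and 8).

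Double-stranded DNA in the cytosol is read by several sensors. The enzyme cGAS makes a cyclic dinucleotide that activates the adaptor STING, the product of Tmem173, and STING recruits the kinase TBK1, which activates the transcription factor IRF3 and thereby type I interferon. AIM2 binds DNA through its HIN domain and, through the adaptor ASC (Pycard), builds an inflammasome with caspase-1. The Ifi200 genes encode proteins with a pyrin domain, a HIN domain or both, they are known as interferon-inducible, and in the brain microglia are the main cells in which such sensors are found. Ifi204 is often treated as the mouse counterpart of human IFI16.

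The inhibited microRNA is shown first, with the letters by which it pairs to transcripts. Mature miR-99b-5p (RefSeq, GRCm38.p6, chr17:17830194-17830215, plus strand) has its seed, bases 2 to 8, in capitals:
mmu-miR-99b-5p: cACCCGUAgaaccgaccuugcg
The 7-base complement of this seed, UACGGGU, was present in an annotated 3′ UTR of 291 of 21186 genes (1.37%). It was present in 0 of 14 genes of the set and the other Ifi200 loci with an annotated 3′ UTR, which says only that these letters are not there.

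Promoter windows, 250 bases before to 50 bases after an annotated start, were held by the RefSeq table (GRCm38.p6) for 12 of the 14 Ifi200 cluster genes, in 14 windows. Each was searched on both strands for the core of the interferon-stimulated response element (ISRE), which is TTTC, any 2 bases and TTTC, and for the GAS element, TTCNNNGAA. The ISRE core was found in 1131 of 32851 windows of all genes (3.44%) and in 10 of the 14 cluster windows, which belong to 9 genes, and GAS was found in 8.3% of all windows. A match is a description of letters and not a site shown to be bound. On the strand of the gene most of these sites read as the complement. The 11 sites are shown with 12 bases on either side, on the strand of the gene, with the core in capitals, because they show how alike the start regions of the cluster are:
Ifi206, chr1:173491337-173491370: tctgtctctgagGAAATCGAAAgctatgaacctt
Ifi214, chr1:173536015-173536048: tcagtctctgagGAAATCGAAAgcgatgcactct
Ifi213, chr1:173599324-173599357: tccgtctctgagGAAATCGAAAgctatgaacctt
Ifi208, chr1:173673595-173673628: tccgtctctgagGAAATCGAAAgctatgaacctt
Ifi207, chr1:173741829-173741862: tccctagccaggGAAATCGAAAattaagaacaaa
Mndal, upstream start, chr1:173880202-173880235: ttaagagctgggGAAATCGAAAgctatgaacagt
Mndal, downstream start, chr1:173879991-173880024: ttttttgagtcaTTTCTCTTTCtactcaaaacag
Ifi211, chr1:173913062-173913095: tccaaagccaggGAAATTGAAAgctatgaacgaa
Ifi203, downstream start, chr1:173942506-173942539: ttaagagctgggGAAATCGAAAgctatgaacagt
Ifi205, before the start, chr1:174031868-174031901: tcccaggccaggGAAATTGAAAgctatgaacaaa
Ifi205, after the start, chr1:174031711-174031744: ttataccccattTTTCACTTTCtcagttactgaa
All are on the minus strand except Ifi208. The core GAAATCGAAA occurred at 7 of the 11 sites and GAAATTGAAA at 2, and 9 sites began between positions -79 and -35 relative to the start. The printed stretches of Mndal (upstream start) and Ifi203 are the same letters. The windows of Aim2, Ifi209 and Ifi202b and the upstream window of Ifi203 held no ISRE core, and that of Ifi202b held a GAS match. Of the genes called below, Ifi204 is named only. The Ifi209 window held no core, but it held taaatcgaaa, which is the core GAAATCGAAA with T in place of its first G. This window (chr1:173630609-173630908, plus strand) is printed whole because Ifi209 had the largest change of the set in microglia:
Ifi209: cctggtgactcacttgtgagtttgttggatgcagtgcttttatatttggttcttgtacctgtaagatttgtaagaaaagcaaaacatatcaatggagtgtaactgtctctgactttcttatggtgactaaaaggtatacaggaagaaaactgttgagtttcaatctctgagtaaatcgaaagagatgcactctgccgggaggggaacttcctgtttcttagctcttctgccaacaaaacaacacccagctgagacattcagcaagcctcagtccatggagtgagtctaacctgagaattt

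Likeness between paralogs also limits the counting of 50-base reads. All 50-base stretches of the Tmem173 transcripts occurred in that gene alone, as did 99.3% for Aim2, 92.7% for Ifi207, 87.6% for Ifi203, 80.5% for Mndal and 80.0% for Ifi204. The share was 66.2% for Ifi209, and 27.2% for Ifi211, so that the count of Ifi211 is uncertain. The Mndal gene spans Ifi211 and overlaps Ifi203 on the same strand, with 155 exon bases (4.27%) shared with other genes.

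Depth was 21324156 to 37901110 reads on genes per library. The 10 microglia markers, among them Cx3cr1, Tmem119 and P2ry12, summed to 10868 to 11504 CPM (reads per gene scaled to the library total) in the microglia, 459 to 637 CPM in the PFC and 121 to 158 CPM in the co-cultures, and none was at 0 in an experiment. In the microglia the astrocyte list summed to 244 to 290 CPM, the neuron list to 108 to 121 CPM, and Hba-a1 and Cd3e were at 0. One PFC library, sc-control replicate 4, lay apart from the other 2 controls for most of the genes described here. The PFC calls of the set are therefore given with and without it.

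Levels per length were compared in the sc-control libraries, as a description without a test, since strain, age and culture differ between the experiments and cannot be told apart. In microglia the order of the set was Ifi207 (47.4 ± 2.99 CPM per kb of exon, SD, n = 4), Tmem173 (16.4 ± 0.69), Aim2 (15.8 ± 0.40), Ifi204 (12.4 ± 1.70), Ifi211 (4.72 ± 0.79), Ifi203 (2.35 ± 0.22), Mndal (2.27 ± 0.16) and Ifi209 (0.94 ± 0.13). Tmem173 and Aim2 overlapped in their ranges, as did Ifi203 and Mndal, and the other neighbours in this order did not. In the PFC Tmem173 led with 2.11 ± 0.21 CPM per kb (n = 3), above Aim2 (0.89 ± 0.25) and Ifi204 (0.62 ± 0.41). From Aim2 down to Ifi211 (0.099 ± 0.084) each gene of the set overlapped the next gene of the cluster in the order. In the co-cultures Ifi207 (0.49 ± 0.07, n = 8), Aim2 (0.48 ± 0.10) and Tmem173 (0.40 ± 0.06) overlapped in their ranges and lay apart from the rest, followed by overlapping ranges of Mndal (0.13 ± 0.04), Ifi203 (0.11 ± 0.03), Ifi204 (0.10 ± 0.02), Ifi211 (0.063 ± 0.025) and Ifi209 (0.036 ± 0.018).

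The remaining Ifi200 loci differed in which of them was present at all. Ifi202b, which encodes a HIN protein without a pyrin domain, had 0 reads in all 6 C57BL/6J PFC libraries, where 3 reads per library would be 0.0822 to 0.123 CPM. The same gene was the highest of the cluster per length in CD1 microglia (69.7 ± 7.58 CPM per kb, n = 4) and in co-cultures (1.39 ± 0.38, n = 8). The opposite order was seen for Ifi206 and Ifi213, with 8 to 29 and 8 to 45 reads per PFC library but 0 to 2 and 0 to 5 reads per microglia library. All 50-base stretches of Ifi202b were its own, and 74.4% of those of Ifi206 and 84.4% of those of Ifi213. Within microglia, Ifi202b made up 44.5% ± 1.37 of the summed per-length level of the cluster in sc-control and 45.5% ± 0.47 in anti-miR-99b, with Ifi207 at 30.4% ± 1.152 and 29.6% ± 0.48.

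**Figure D1:**
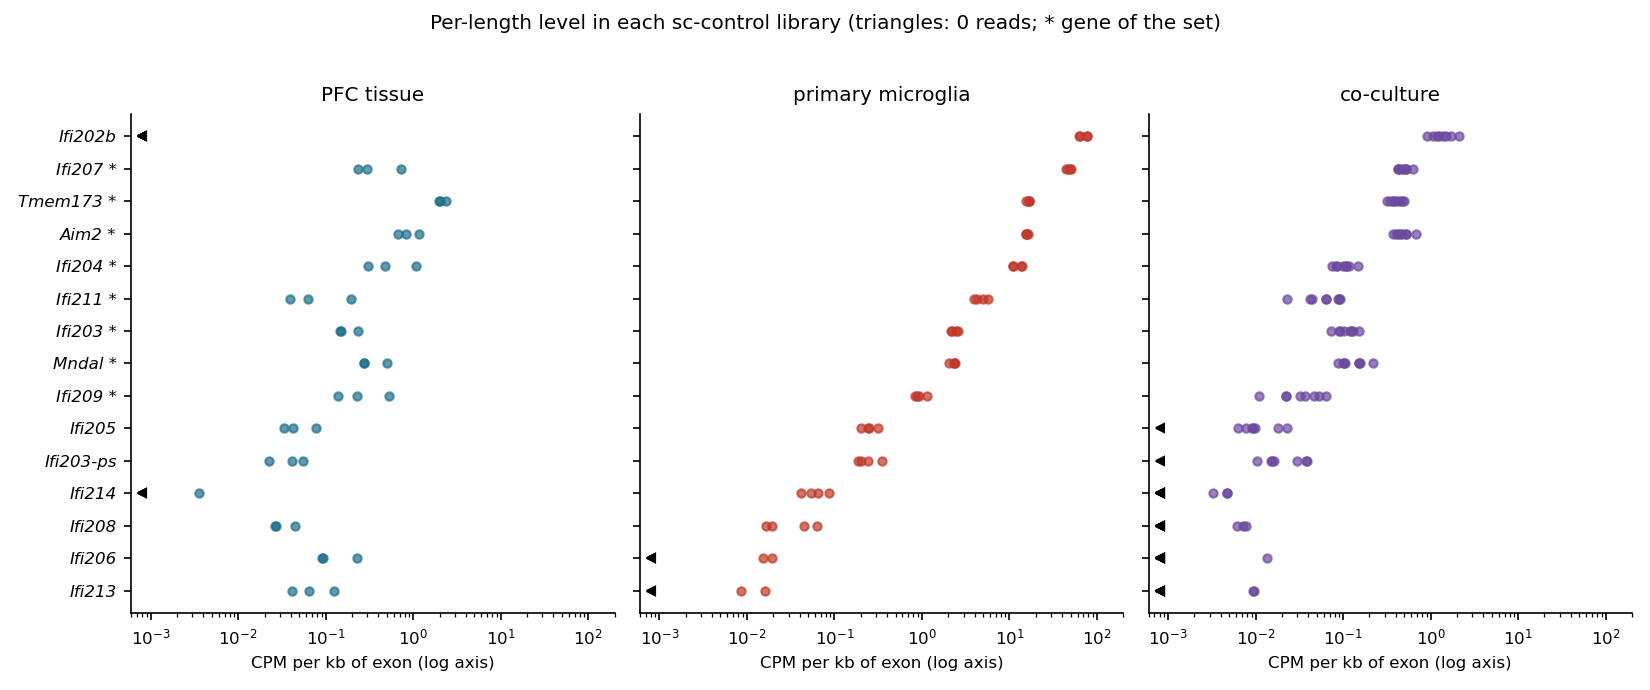
Level of each gene per kb of exon (CPM per kb, log axis) in every sc-control library of the 3 experiments, with the genes ordered by their microglia level and libraries with 0 reads as triangles at the left edge. Ifi202b is at 0 in the PFC and highest in both cultures, and Ifi206 and Ifi213 are near 0 in the cultures.

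In primary microglia the question was whether inhibition of miR-99b-5p changed these genes in the cells themselves. Ifi204, Ifi209 and Mndal rose, the first 2 by 32.3% and 48.7% and Mndal by 30.9% in the fit, while Tmem173 (0.517%) and Aim2 (-2.64%) did not pass the test. Of the 8 genes, 3 passed the threshold as higher (adjusted p under 0.1 and log2FC over 0.1 by edgeR's quasi-likelihood test) and 0 as lower, where 0.435% of the 14953 genes tested passed as higher and 0.0535% as lower. The median log2FC of the 8 was 0.28 beside 0.0025 over all genes. At an unadjusted edgeR p under 0.05, 6 of the 8 were higher and 0 lower, where 3.4% and 3.04% of all genes were. These 6 genes varied together over the 8 libraries after subtraction of the group means. Pearson r of log2(CPM + 0.5) ranged from 0.62 (Ifi209 and Ifi211) to 0.95 (Ifi207 and Mndal). The counts are therefore not of independent genes.

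Mndal, which encodes a nuclear pyrin and HIN protein, had 8.49, 8.75, 8.35 and 7.40 CPM in the sc-control libraries and 11.8, 9.42, 10.7 and 11.0 CPM after anti-miR-99b. It was the single gene of the set whose groups did not overlap (1.65% of genes tested were separated with anti-miR-99b higher and 1.8% with it lower), with a log2FC of 0.39 ± 0.08 (SE) and an edgeR adjusted p of 0.026. A two-sided exact permutation test of mean CPM gave p = 0.0286, the smallest that 4 against 4 allows, which groups without overlap always give.

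Ifi204 had 50.2, 48.8, 39.5 and 38.7 CPM in sc-control and 64.9, 47.8, 58.1 and 61.8 CPM in anti-miR-99b. The lowest treated library, replicate 3, lay below the 2 highest controls, so the groups overlapped. Here the exact two-sided permutation test of the means gave p = 0.0857. The log2FC was 0.40 ± 0.08 (edgeR adjusted p = 0.0257), and the DESeq2 adjusted p was 0.535, within a range of 4.83e-21 to 0.535 over 17 alternatives.

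Ifi209 moved most, from 4.01, 3.31, 2.93 and 3.13 CPM in sc-control to 6.23, 3.94, 5.18 and 4.23 CPM. Only replicate 3 of the treated libraries fell below the highest control, and the log2FC was 0.57 ± 0.13 (edgeR adjusted p = 0.0655). For Ifi209 the exact two-sided permutation test of the means gave p = 0.0571.

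The other 3 Ifi200 genes of the set did not pass. Ifi207, the most abundant of the set, had a log2FC of 0.19 ± 0.05 (edgeR adjusted p = 0.187), with 150 to 174 CPM in sc-control and 160 to 198 CPM in anti-miR-99b. For Ifi203 the log2FC was 0.33 ± 0.09 (adjusted p = 0.21), with 14.3 to 17.4 CPM against 15.4 to 23.3 CPM. For Ifi211 it was 0.24 ± 0.11 (adjusted p = 0.725), with 7.12 to 10.2 CPM against 7.87 to 11.2 CPM. In Ifi203, Ifi204, Ifi207, Ifi209, Ifi211 and Mndal alike, replicate 3 was the lowest of the 4 treated libraries.

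The adaptor gene Tmem173 and the sensor gene Aim2 did not pass either. Tmem173 had 41.98 to 45.9 CPM in sc-control and 43.1 to 47.8 CPM in anti-miR-99b, with a log2FC of 0.01 ± 0.04 and a 95% interval of -0.07 to 0.09. Aim2 had 54.3 to 57.3 CPM in sc-control and 53.2 to 54.7 CPM in anti-miR-99b, with a log2FC of -0.04 ± 0.03 and an interval of -0.10 to 0.03. The difference between these genes and Ifi204 was not itself tested.

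The microglia libraries were sequenced on 2 lanes with 2 libraries per group on each. On lane 5 the log2 ratio of mean CPM was 0.19 for Ifi204, 0.47 for Ifi209 and 0.30 for Mndal, and on lane 6 it was 0.62, 0.63 and 0.46. The groups were separate on lane 6 for all 3, and also for the uncalled Ifi203, Ifi207 and Ifi211, and on lane 5 for Mndal alone. The share of all genes so separated within a lane was not computed. The calls also rested on single libraries: 0 of the 8 genes passed without sc-control replicate 4, without sc-control replicate 6, without anti-miR-99b replicate 1 or without anti-miR-99b replicate 5, and 5 passed without sc-control replicate 2 or without anti-miR-99b replicate 3. Over the whole table, where 65 genes were higher with all libraries, 0, 6, 11 and 2 were higher without each of the first 4 libraries in turn, and 234 and 101 without each of the last 2. The microglia markers overlapped between the groups (10868 to 11323 CPM in sc-control and 11123 to 11504 CPM in anti-miR-99b), and 0 of the 10 passed the threshold.

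**Figure D2:**
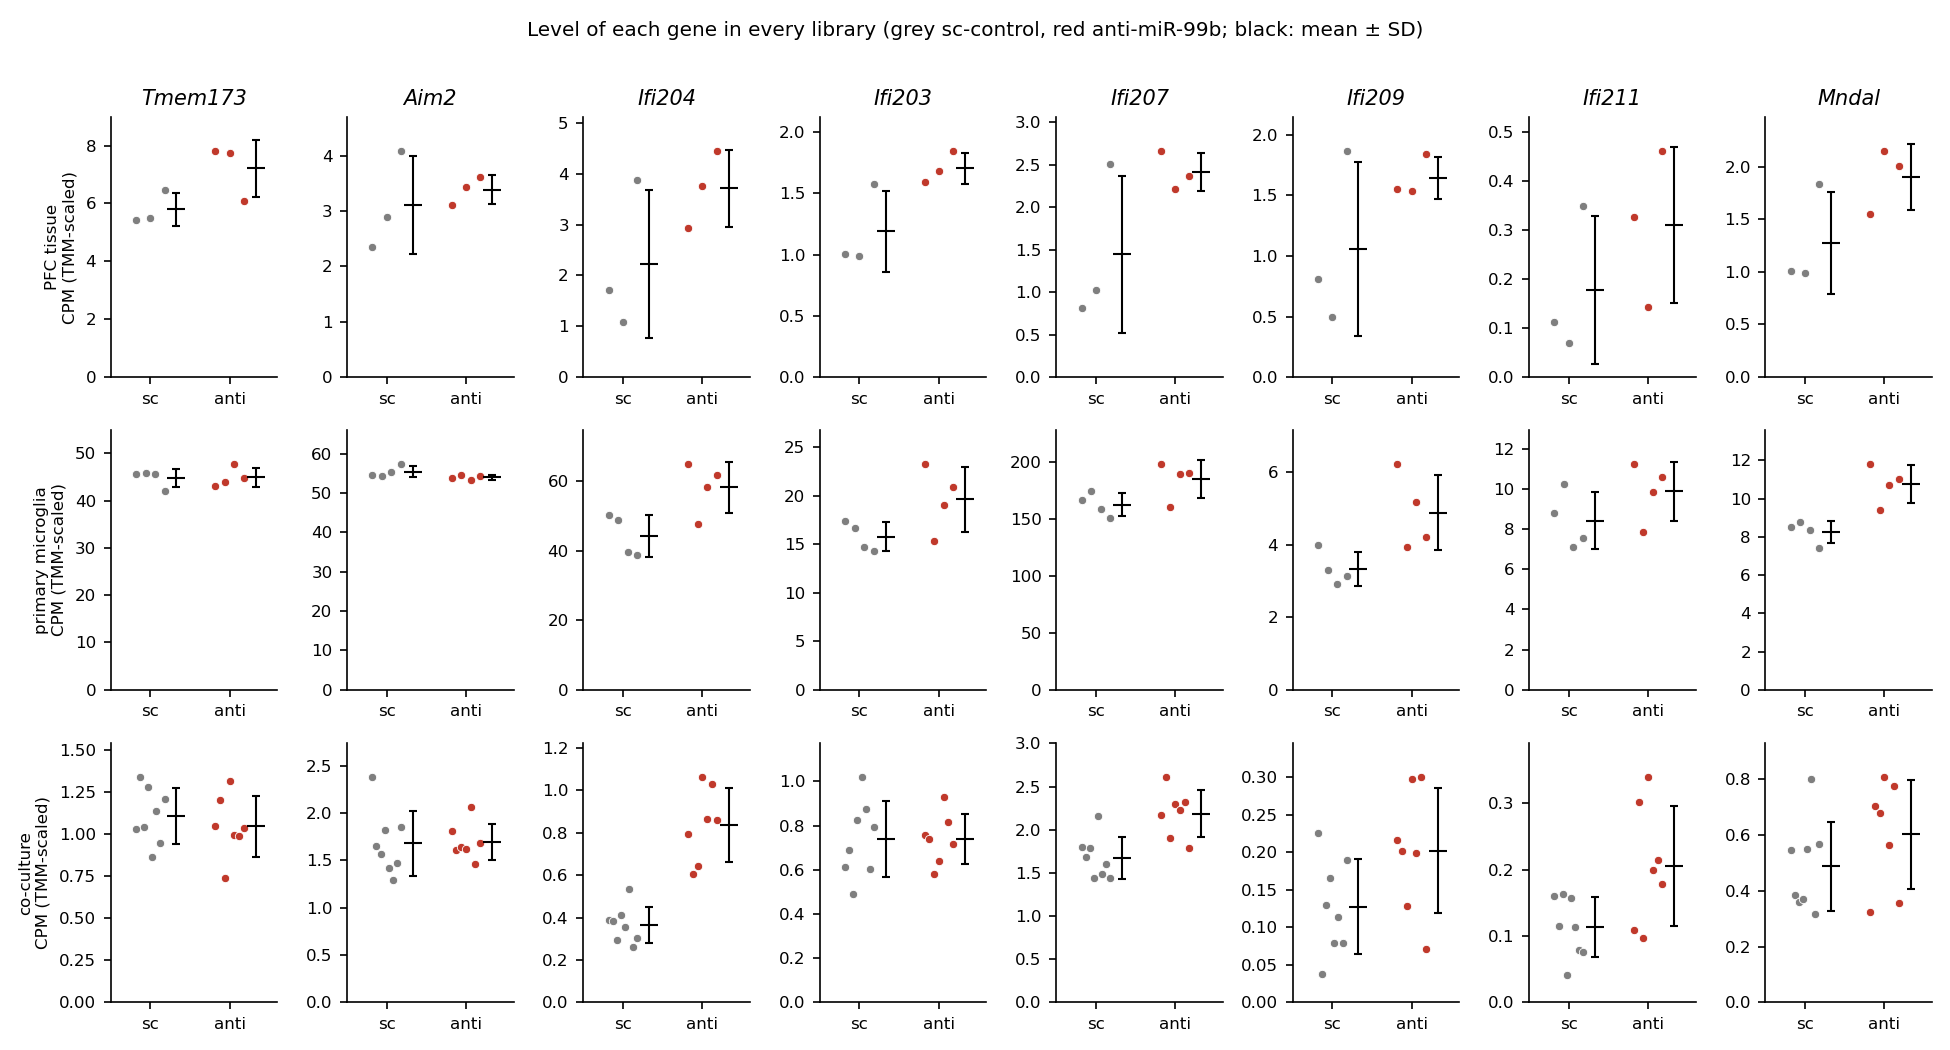
CPM of the 8 genes in every library (rows: experiments; columns: genes), grey for sc-control and red for anti-miR-99b, with mean ± SD in black and each y axis starting at 0. The microglia groups are separate for Mndal, the co-culture groups are separate for Ifi204, and in the PFC 1 grey point lies at the level of the red points in most panels.

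Other parts of the sensing pathway were read from lists of their members. In microglia 1 of 13 genes of the cGAS-STING axis rose, Irf7, the interferon-inducible transcription factor (log2FC 0.65 ± 0.11, edgeR adjusted p = 0.0106). The sensor Cgas (log2FC 0.05 ± 0.05), the kinase Tbk1 (0.00 ± 0.03) and the factor Irf3 (0.05 ± 0.04) were not called. Of 8 other DNA sensors, Zbp1, which binds Z-form nucleic acids, rose (log2FC 0.61 ± 0.10, edgeR adjusted p = 0.0106). Of 2 outputs tested, the chemokine Cxcl10 rose (log2FC 0.38 ± 0.08, edgeR adjusted p = 0.0421), Ccl5 was not called (-0.09 ± 0.09), and Ifna4 was at 0 reads in all libraries. None of the 7 inflammasome partners of Aim2 was called, with Pycard at 0.03 ± 0.05 and Casp1 at 0.01 ± 0.03 in log2FC. None of the 5 nucleases and nucleotide-limiting enzymes tested was called, and Trex1, which overlaps Atrip on the same strand, was listed at 0 in all 29 libraries. Among the other Ifi200 loci, 1 of 4 tested rose, Ifi202b, from 118 ± 12.9 to 140 ± 10.1 CPM (SD, n = 4 and 4) (log2FC 0.25 ± 0.06, edgeR adjusted p = 0.0511). Not called were Ifi214 (log2FC 0.60 ± 0.28), Ifi205 (0.49 ± 0.18) and the pseudogene Ifi203-ps (-0.25 ± 0.26). Of 10 interferon-stimulated genes taken for comparison, 9 rose, where 0.435% of all genes tested passed as higher. The 4 with the lowest p had a log2FC of 0.40 ± 0.07 (Oas1a), 0.71 ± 0.13 (Ifit3), 0.69 ± 0.13 (Ifit1) and 0.66 ± 0.13 (Usp18). The median over the 10 was 0.51, and Irf9 did not pass (0.16 ± 0.05). For all 10 the groups overlapped, and without sc-control replicate 4, 0 genes of the whole table were called as higher.

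In the co-cultures the question was whether pre-treated microglia still differed after being placed on neurons. Ifi204 rose more than 2-fold (2.27-fold in the fit), and it was the single gene of the set that passed. Called were 1 of 6 genes tested as higher and 0 as lower, where 0.846% and 0.556% of the 16193 genes tested passed. At an unadjusted edgeR p under 0.05, 2 were higher (Ifi204 and Ifi207) and 0 lower, where 6.4% and 6.81% of all genes were. Ifi209 and Ifi211 were too low to be tested, with at most 0.301 and 0.340 CPM in any library.

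Ifi204 was counted with 22, 18, 20, 25, 26, 24 and 24 reads in the 7 treated libraries and with 12, 10, 9, 10, 9, 14, 10 and 8 reads in the 8 controls. These are 0.603 to 1.06 CPM (median 0.858) and 0.263 to 0.532 CPM (median 0.368), so the groups did not overlap, as for 0.303% of the genes tested in this direction and 0.278% in the other. The log2FC was 1.19 ± 0.18 (edgeR adjusted p = 0.000529). The exact two-sided permutation test of the means gave p = 0.000311, the smallest that 7 against 8 allows, which groups without overlap always give. Since the groups did not overlap, Ifi204 had to be higher in the treated libraries on each lane, so the split by lane adds no test. The log2 ratio of means on the 4 lanes was 0.86, 0.87, 1.00 and 1.70, with 1 to 3 libraries per group on a lane.

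Ifi207 had 1.79 to 2.61 CPM (median 2.23) in anti-miR-99b and 1.44 to 2.16 CPM (median 1.65) in sc-control, with a log2FC of 0.38 ± 0.10. The edgeR adjusted p was 0.0643, above the 0.05 required here and below the 0.1 required in microglia. Mndal had a log2FC of 0.31 ± 0.22 (adjusted p = 0.598) and Ifi203 of 0.03 ± 0.16 (adjusted p = 0.962). Tmem173 (-0.08 ± 0.13) and Aim2 (0.02 ± 0.12) were not called, with 95% intervals of -0.33 to 0.18 and -0.21 to 0.25. The median log2FC of the 6 genes was 0.17 beside 0.0025 over all genes.

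Microglia markers were also higher in the treated co-cultures. Of the 10, 4 passed the threshold (Cx3cr1, Csf1r, C1qa and Trem2), the list summed to 136 to 158 CPM in anti-miR-99b and 121 to 147 CPM in sc-control, and the median log2FC was 0.19. In bulk RNA a different number of microglia and a different amount of RNA per microglia cannot be told apart. Per 1000 CPM of summed markers, Ifi204 was 5.58 ± 1.01 (SD, n = 7) in anti-miR-99b and 2.83 ± 0.70 (n = 8) in sc-control, with ranges of 4.02 to 6.90 and 1.98 to 4.36 that overlapped. Ifi207 on this scale was 14.6 ± 1.48 and 13.0 ± 2.22, and Tmem173 was 7.00 ± 1.08 and 8.56 ± 1.31. With the mean log2 level of the markers as a covariate the log2FC of Ifi204 was 0.92 and the edgeR adjusted p 0.461, and 6 genes of the whole table were then higher, so the call is lost and 0 of 6 genes passed. Over 22 alternatives the adjusted p of Ifi204 ranged from 8.59e-05 to 0.461.

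**Figure D3:**
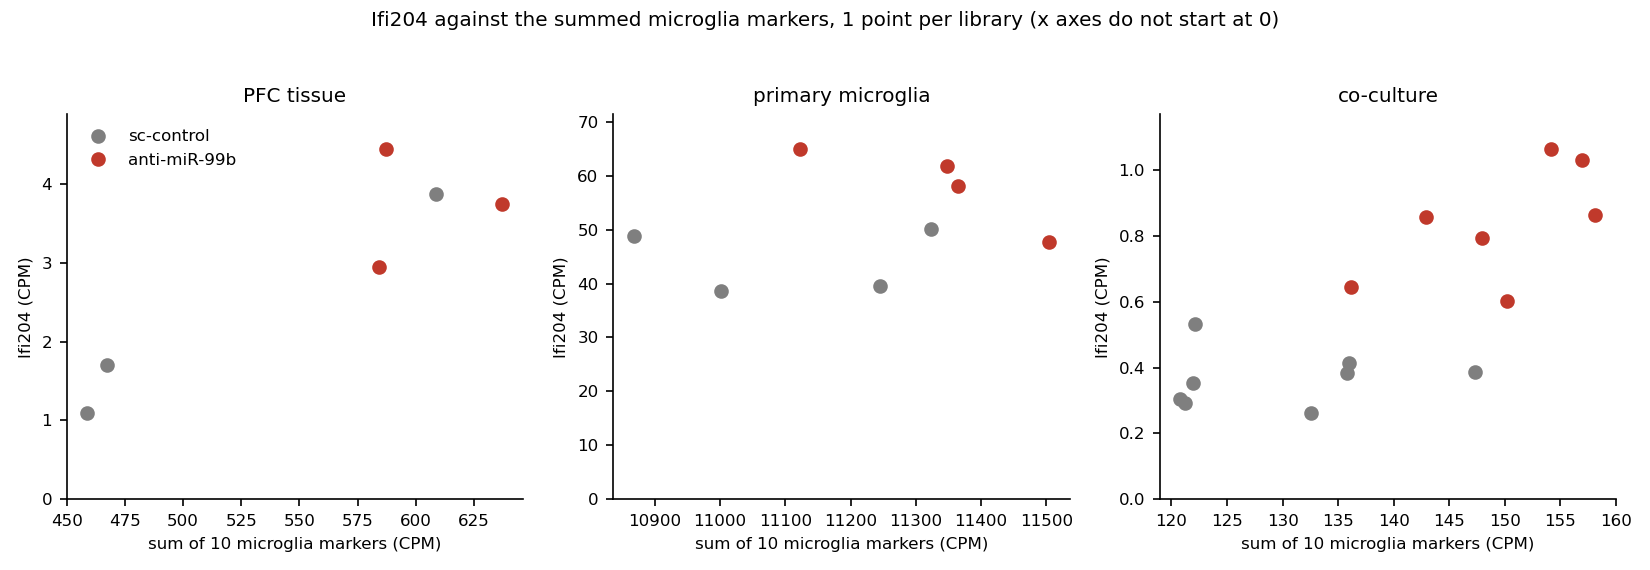
Ifi204 (CPM, y axis from 0) against the sum of 10 microglia markers (CPM, x axis not from 0) in each library of the 3 experiments, grey for sc-control and red for anti-miR-99b. In the co-cultures all 7 red points lie above the 8 grey points while the marker sums overlap, and in the PFC 1 grey point lies among the red ones on both axes.

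Of the pathway lists, the co-cultures had 1 of 13 genes of the cGAS-STING axis higher, the kinase gene Ikbke (log2FC 0.33 ± 0.06, edgeR adjusted p = 0.00202), and 1 of 2 outputs tested, the chemokine Ccl5, from 4.87 ± 0.38 to 8.50 ± 0.92 CPM (log2FC 0.79 ± 0.07, adjusted p = 1.05e-07). One of 10 interferon-stimulated genes, Rsad2, rose (log2FC 0.39 ± 0.09, adjusted p = 0.0254). No inflammasome partner, other sensor, nuclease or further Ifi200 locus was called, with Ifi202b at a log2FC of 0.43 ± 0.14 (adjusted p = 0.141). Ifnb1 and Ifna4 had 0 reads in all 15 libraries.

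For 5 genes of the set tested in the co-cultures, the genes that varied most like each over the 15 libraries, after subtraction of the group means, were named by Pearson r of log2(CPM + 0.5) among 16187 genes. They were Gm26514 (0.89) and L3hypdh (0.83) for Ifi204, Pex3 (0.85) and Glra2 (0.84) for Ifi207, and Zfp563 (0.84) and Lix1 (0.83) for Mndal. For Aim2 they were Rrnad1 (0.93) and Ist1 (0.85), and for Tmem173 Bcl2l13 and Efnb2 (0.83 each). These are the highest of many values over few libraries at low counts. Genes of the set were left out of the ranking, and of the other Ifi200 loci only 1 was tested. The ranking therefore cannot show whether Ifi200 genes vary together.

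In the PFC the question was whether the genes moved in the injected tissue. All 7 genes tested had a positive log2FC, from 0.13 ± 0.20 for Aim2 to 0.73 ± 0.36 for Ifi204, and none passed the threshold. Of the 7, 0 were called as higher or lower by edgeR (adjusted p 0.649 to 0.882) and 0 by DESeq2, where 0.0864% of 17364 genes tested were called as higher and 0.0% as lower. At an unadjusted edgeR p under 0.05, 2 were higher, Tmem173 and Ifi203, and 0 lower, where 5.17% and 2.47% of all genes were. The median log2FC was 0.57 beside 0.0025 over all genes.

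Ifi204 had 2.94, 3.75 and 4.44 CPM after anti-miR-99b and 1.70, 1.09 and 3.87 CPM in sc-control. Ifi207 had 2.65, 2.22 and 2.37 CPM against 0.810, 1.02 and 2.505 CPM. Ifi209 had 1.55, 1.54 and 1.84 CPM against 0.810, 0.493 and 1.86 CPM. In each case the third of these controls, replicate 4, stood at the level of the treated mice while the other 2 stood below all of them.

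Mndal showed the same order, with 1.55, 2.14 and 2.01 CPM against 1.01, 0.987 and 1.83 CPM. Ifi203 was the single gene without overlap, with 1.59, 1.68 and 1.84 CPM against 1.01, 0.987 and 1.57 CPM, where 7.52% of genes tested were separated in that direction and 5.81% in the other. The exact permutation p was 0.1, the smallest 3 against 3 allows, which groups without overlap always give. Tmem173 had 7.80, 7.75 and 6.08 CPM against 5.42, 5.50 and 6.47 CPM, and Aim2 had 3.10, 3.43 and 3.62 CPM against 2.35, 2.89 and 4.08 CPM. Ifi211 was too low to be tested, at 0.0705 to 0.460 CPM.

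Without sc-control replicate 4, 3 of the 7 genes passed in the PFC: Ifi207 (log2FC 1.40, edgeR adjusted p = 0.0280), Ifi204 (1.39, adjusted p = 0.0448) and Ifi209 (1.30, adjusted p = 0.0837). Not passing were Mndal (0.93, adjusted p = 0.163), Ifi203 (0.77, adjusted p = 0.260), Tmem173 (0.40, adjusted p = 0.544) and Aim2 (0.38, adjusted p = 0.757). Calls also rose over the whole table, from 15 of 17364 genes higher to 195 of 17630, and this library was singled out after its values for these genes had been seen. This library also had the highest sum of microglia markers of the controls, 609 CPM beside 467 and 459 CPM, where the treated mice had 584 to 637 CPM, and the median log2FC of the marker list was 0.26. With the marker level as a covariate the log2FC of Ifi204 was 0.07, that of Ifi207 0.17 and that of Ifi209 -0.012, beside 0.73, 0.73 and 0.62 without it. Over 15 alternatives the adjusted p ranged from 7.51e-10 to 0.970 for Ifi204, from 6.83e-05 to 0.970 for Ifi207 and from 0.000735 to 0.990 for Ifi209. The library was on lane 7, as was anti-miR-99b replicate 3, and the other 4 were on lane 6. On lane 6 the log2 ratio of means was 1.26 for Ifi204, 1.41 for Ifi207 and 1.24 for Ifi209, and on lane 7, with 1 library per group, it was 0.20, -0.08 and -0.02. The part of markers and lane in the PFC result was not tested further.

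Of the other Ifi200 loci 2 could be tested in the PFC, and neither was called. Ifi206 had 1.103, 0.572 and 0.954 CPM after anti-miR-99b and 0.279, 0.282 and 0.699 CPM in sc-control (log2FC 1.03 ± 0.40, edgeR adjusted p = 0.648), and Ifi213 had a log2FC of 0.86 ± 0.47. No gene of the other pathway lists was called, nor any of the 10 interferon-stimulated genes, whose median log2FC was 0.96. For 5 of these 10 and 2 of 4 outputs of DNA sensing the groups did not overlap, with anti-miR-99b higher. The outputs summed to 7.39 to 10.4 CPM in anti-miR-99b and 2.33 to 4.54 CPM in sc-control. Of 13 genes of the cGAS-STING axis, 4 were so separated as higher and 1 as lower. Over all genes tested the shares were 7.52% and 5.81%. Of the cGAS-STING axis, Irf7 had a log2FC of 1.07 ± 0.24 (adjusted p = 0.286) and Cgas of 0.44 ± 0.18 (adjusted p = 0.648).

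**Figure D4:**
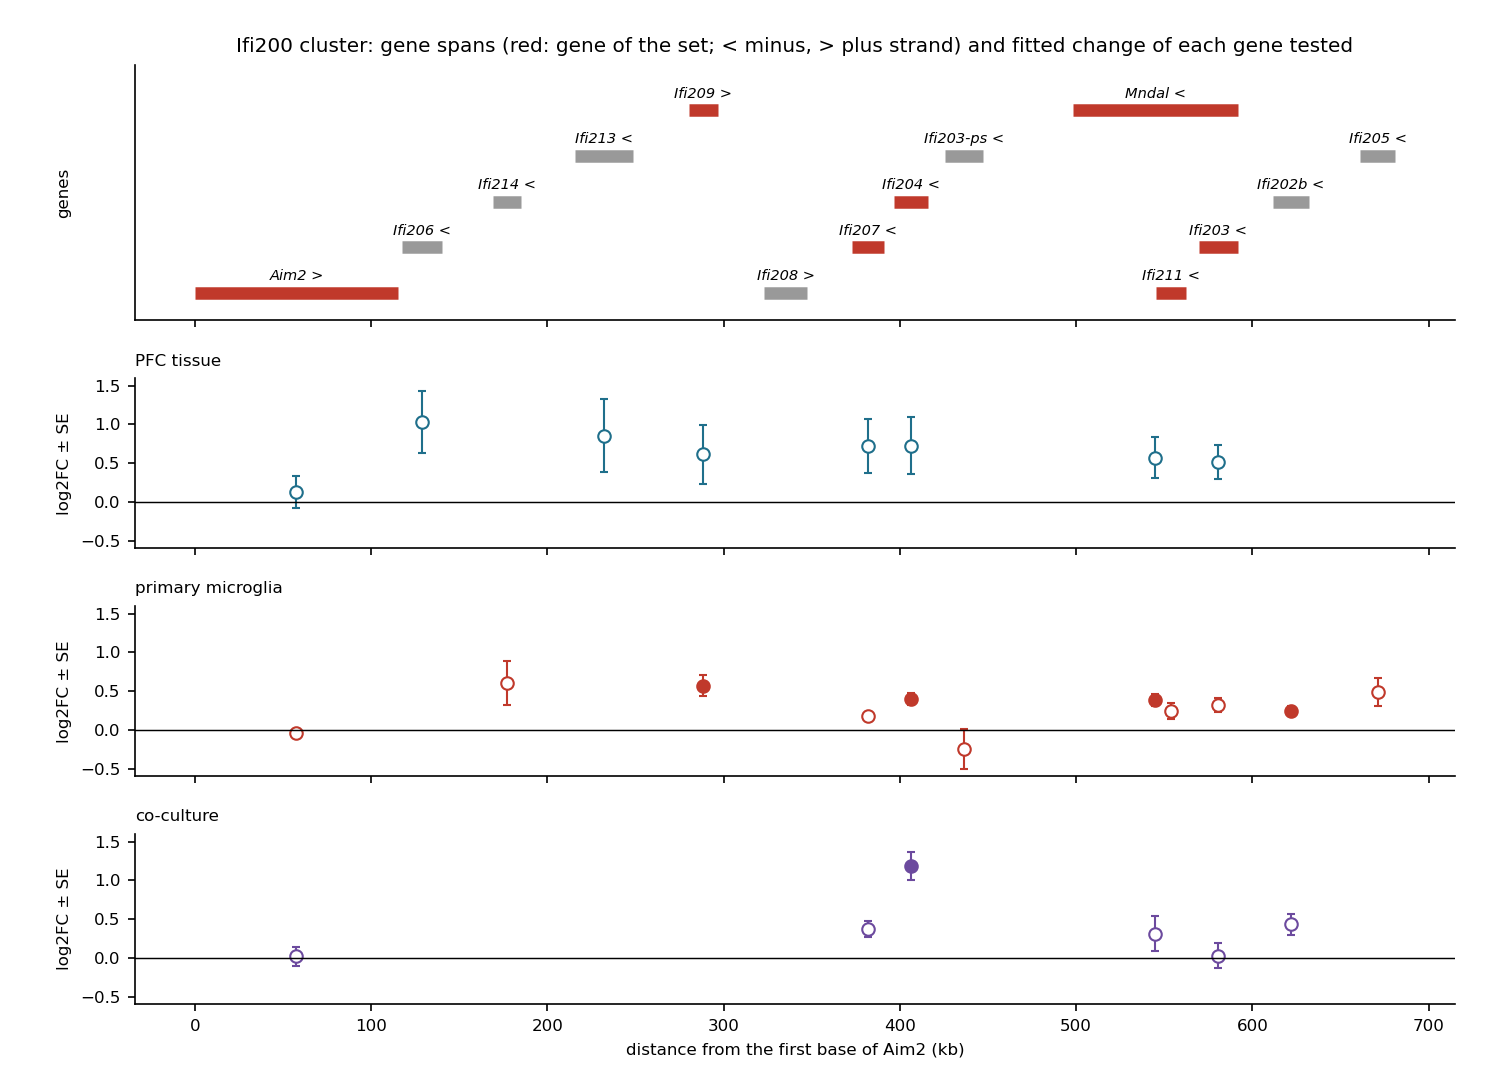
Gene spans of the Ifi200 cluster by distance from the first base of Aim2 (kb), with log2FC ± SE of each gene tested below, 1 panel per experiment, filled where past the threshold. Aim2 lies between -0.04 and 0.13 in the 3 experiments, and of the other loci tested, all but the pseudogene Ifi203-ps in microglia have a positive log2FC.

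The genes on either side of the cluster were examined next. Of 47 annotated genes within 0.5 Mb of the cluster, 3 were tested in PFC tissue, 3 in primary microglia and 4 in co-cultures, and 0 were called, with log2FC from -0.03 to 0.00, -0.09 to 0.08 and -0.07 to -0.01.

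The effects of anti-miR-99b were compared between experiments in 1 fit over the 29 libraries. Of 24 differences (8 genes, 3 pairs of experiments), 0 were called at an edgeR adjusted p under 0.05 (lowest 0.243). Of 18963 genes, 0.469% were called for microglia against PFC, 0.791% for co-culture against PFC and 0.0844% for co-culture against microglia. At an unadjusted edgeR p under 0.05 there were 4 of the 24, and the share of all genes at that cut was not computed. The effect on Ifi204 was larger in the co-cultures than in the microglia by 0.76 ± 0.34 in log2FC (adjusted p = 0.858, unadjusted p = 0.033). The effect on Tmem173 was lower in the microglia than in the PFC by a difference of -0.28 ± 0.11 (adjusted p = 0.294). A difference between experiments in the response of these genes was not established.

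**Figure D5:**
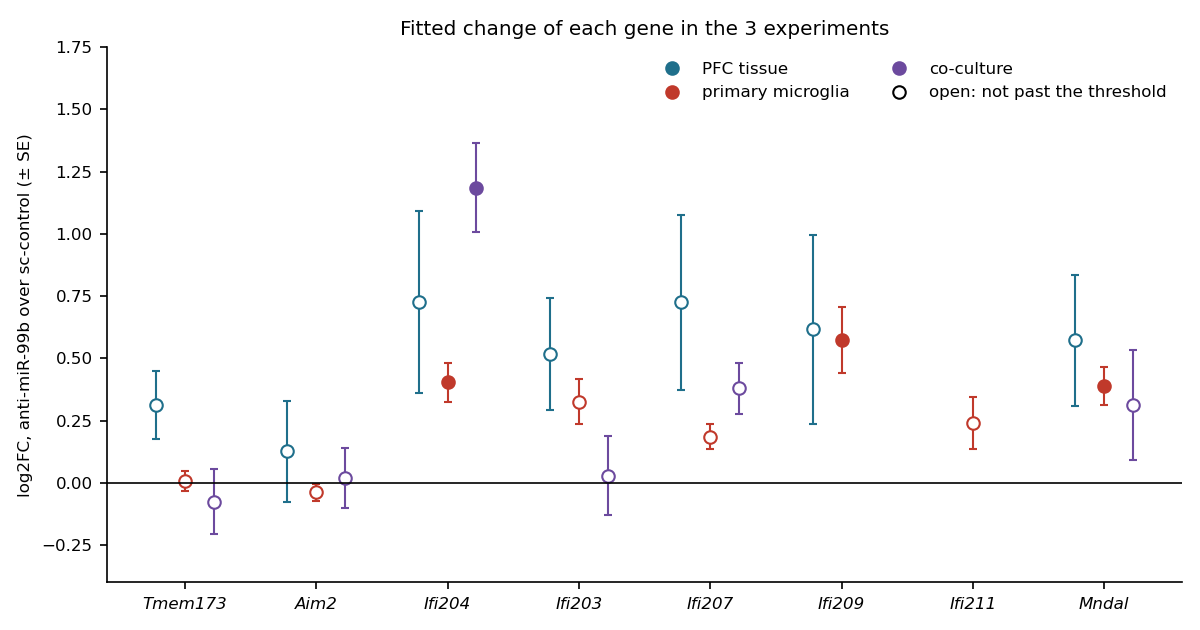
Fitted log2FC ± SE (anti-miR-99b over sc-control) of the 8 genes in each experiment, filled where past the threshold of that experiment and open where not. Filled points are Ifi204, Ifi209 and Mndal in microglia and Ifi204 in co-culture, and missing points were too low to be tested.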

How the data were processed

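The 29 libraries were TruSeq RNA libraries read as 50-base single reads. According to the submitters' processing notes the authors used bcl2fastq 2.20.2, FastQC 0.11.5, STAR 2.5.2b with mm10 and featureCounts 1.5.1, and they deposited raw counts of reads per gene, 1 table per experiment. The annotation release and strand setting are not given in the sources used here, so counts of overlapping genes are uncertain. All value columns were matched to samples by library name. Labels do not say whether cultures were independent, so p-values of the cultures measure the spread between these libraries.

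Each experiment was fitted alone in R 4.3.3 with edgeR 4.0.16: filterByExpr, TMM factors, the quasi-likelihood test without covariates, and Benjamini-Hochberg adjustment over all genes tested (17364 for PFC, 14953 for microglia, 16193 for co-cultures). Calls required an adjusted p under 0.1 and a log2FC beyond 0.2 in the PFC, under 0.1 and beyond 0.1 in the microglia, and under 0.05 and beyond 0.1 in the co-cultures. The PFC and co-culture cuts are those in the Results text of the study, which states none for the microglia. The SE was the log2FC divided by the square root of F, and 95% intervals were 1.96 SE. CPM were scaled by TMM factors, and floors of 3 reads cover counting error only. The intervals also include the spread between libraries that the fit estimated. A second fit held all 29 libraries with 6 group means. The scripts were tested on simulated data. Symbols, coordinates and exon lengths come from GENCODE M21 and promoters and the microRNA from RefSeq.

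Named were the 8 genes in every experiment, all other Ifi200 loci, and of each pathway list at most 4 called genes per experiment by p. Values of uncalled list genes (Cgas, Tbk1, Irf3, Pycard, Casp1, Ccl5, Irf9) were added after they had been seen. The genes, lists and motifs were chosen with earlier results of these data known. Alternatives were DESeq2 1.42.0, RLE and upper-quartile factors, a total of at least 1 count or at least 10 counts in every library, 1 RUVs factor, lane, replicate number or microglia marker level in the model, a threshold of adjusted p under 0.05 alone, and each library left out in turn. A few results on single genes are not reported here.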

Additional observations from a re-analysis of the deposited data

Results flagged for a closer look

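Tmem173 in primary microglia had 1 control library apart from the rest. Replicate 6 of sc-control had 41.98 CPM (1435 reads), while the other 3 controls had 45.7 to 45.9 CPM, a gap of 0.934 of the range of the group. Of 32 combinations of gene and group examined for such a library, this was the single one, and chance flags about 1 in 20 groups. Not every gene and group of the 3 experiments was among the 32. The PFC library described above, sc-control replicate 4, is not counted here. The log2FC of Tmem173, 0.0074 with all libraries, was -0.026 without this library and -0.025 without anti-miR-99b replicate 4.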

How the results depend on the processing

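In the PFC, where 0 genes of the set were called, 1 was called with all genes of a total of at least 1 count (Ifi204), and 0 to 3 when 1 library was left out, with 3 without sc-control replicate 4. In microglia, where 3 were called, 5 were called with that filter, 5 with an RUVs factor and 6 with the microglia marker level as a covariate, and 0 to 5 when 1 library was left out. At an edgeR adjusted p under 0.05 alone, Ifi204 and Mndal stayed called in microglia and Ifi209 (adjusted p = 0.0655) did not. In co-culture, where 1 was called, 0 were called with at least 10 counts in every library, since Ifi204 was then not tested, 2 with an RUVs factor, 0 with the marker covariate, and 1 to 2 when 1 library was left out, with 2 (Ifi204 and Ifi207) without anti-miR-99b replicate 12 or without sc-control replicate 6. DESeq2 gave no adjusted p for Ifi204 in co-culture (unadjusted p = 1.41e-07). The causes were not tested.

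Same-numbered libraries did not deviate together (correlations of -0.28 to 0.05), so the numbers were not taken to pair them. With the replicate block, 4 genes were called in the PFC, 2 in microglia and 1 in co-culture.

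Some uncalled log2FC changed sign. With the marker covariate these were Aim2 (-0.19) and Ifi209 (-0.012, from 0.62) in the PFC, Tmem173 in microglia (-0.0083) and Aim2 in co-culture (-0.24), and with the replicate block Tmem173 in microglia (-0.0013) and Aim2 (-0.043) and Ifi203 (-0.016) in co-culture. With 1 library left out, Aim2 ranged from -0.047 to 0.38 in the PFC, Tmem173 from -0.026 to 0.025 in microglia, Aim2 from -0.036 to 0.11 and Ifi203 from -0.041 to 0.11 in co-culture. Over all genes tested, calls as higher and lower numbered 15 and 0 in the PFC but 85 and 8 by DESeq2, 208 and 107 with RUVs, and 195 and 6 without sc-control replicate 4. They numbered 65 and 8 in microglia but 33 and 5 by DESeq2 and 0 and 2 without sc-control replicate 4, and 137 and 90 in co-culture but 6 and 0 with the marker covariate. The differences between experiments stayed at 0 calls under all alternatives run.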
